A study of Mus musculus with 12 samples.

Results

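The genes described here are the interferon-induced gene families of mouse, 67 genes out of 16670 listed. Membership was set by gene symbol, for families picked with earlier results of these data known. The families are the 2-5A synthetases (Oas and Oasl), the Ifit, Ifitm, Ifi and Gbp genes, the interferon regulatory factors (Irf), the Schlafen genes (Slfn), the signal transducer Stat2, the nucleic acid sensors Ifih1, Ddx58, Dhx58 and Zbp1, and the effectors Isg15, Isg20, Mx1, Mx2, Rsad2, Usp18, Bst2, Rtp4 and Xaf1. Each was measured by strand-specific RNA sequencing in 12 libraries of inguinal white fat, a depot under the skin, from female C57BL/6 mice. The tissue was digested and spun into a floating layer of mature adipocytes and a pellet, the stromal vascular fraction, which holds progenitor, vascular and immune cells. There were 4 groups of 3 libraries: Kdm5c+/- mature adipocytes, wild-type (Kdm5c+/+) mature adipocytes, Kdm5c+/- stromal vascular cells and wild-type stromal vascular cells. Each library came from the pooled tissue of 2 mice. The sources used here do not give the construction of the Kdm5c allele, the age of the mice or their diet.

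Interferons are secreted signals of viral infection and of misplaced nucleic acid. Type I interferon binds the Ifnar receptor, and the kinases Jak1 and Tyk2 switch on a complex that holds Stat2 and Irf9 and binds interferon-stimulated response elements in promoters. Type II interferon acts through Ifngr and drives Gbp genes and Irf1 in particular. The induced genes include sensors that start the response, factors that amplify it, such as Irf7, and effectors that block viral entry, translation or release. In fat, macrophages, endothelial cells and adipocytes all carry parts of this program, and in mouse adipocytes Irf4 is also known as a nutrient-controlled regulator of lipid handling.

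The promoters of several families carry a shared letter pattern. Of the 67 members, 48 matched a RefSeq promoter window of GRCm38.p6, 250 bases before to 50 after a transcription start. The core of the interferon-stimulated response element, GAAA repeated after any 2 bases, on either strand, occurred in 24 of these 48 members (50.0%). It occurred in 437 of 12230 other listed genes (3.57%) and in 3.44% of all 32851 windows. The members are a chosen list with close relatives among them, so they are not independent draws. The same core followed by C, a subset of the first, occurred in 35.4% of members, in 0.85% of the other genes and in 0.819% of all windows. The gamma-activated pattern TTCNNNGAA, which reads the same on both strands and can overlap the core, occurred in 12 of 48 members, in 8.37% of the other genes and in 8.3% of all windows. Every matched member of the Gbp group (4 of 4), the Ifi200 group (2 of 2) and the sensors (2 of 2) held the core, against 1 of 8 interferon regulatory factors and 0 of 4 other Ifi genes. The matched Gbp genes were Gbp2, Gbp3, Gbp5 and Gbp7 of chromosome 3. The 19 members without a window were not searched, among them Zbp1, Oas2, Dhx58, Ifi204 and every Gbp member of chromosome 5. A match describes letters only, and a gene may have other start sites than those in the table. The stretches below show the core in members with different expression. They are written 5′ to 3′ in the direction of the gene from RefSeq, with the core or its reverse complement in capitals.
Isg15, chr4:156200860-156200911, minus strand: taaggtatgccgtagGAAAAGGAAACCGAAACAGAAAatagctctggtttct
Ifit1, chr19:34640770-34640828, plus strand: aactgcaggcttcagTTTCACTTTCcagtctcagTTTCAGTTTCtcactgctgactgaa
Oas1a, chr5:120907526-120907560, minus strand: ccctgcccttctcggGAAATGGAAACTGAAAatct
Oas1g, chr5:120887614-120887646, minus strand: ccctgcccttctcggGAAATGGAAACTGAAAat
Bst2, chr8:71537572-71537617, minus strand: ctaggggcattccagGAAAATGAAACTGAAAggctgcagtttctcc
Stat2, chr10:128270261-128270300, plus strand: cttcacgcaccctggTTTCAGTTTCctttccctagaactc
Gbp2, chr3:142620589-142620628, plus strand: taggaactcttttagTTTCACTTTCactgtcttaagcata
Slfn5, chr11:82951932-82951971, plus strand: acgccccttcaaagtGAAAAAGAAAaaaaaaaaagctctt
Isg15 held 3 overlapping cores, and Ifit1 held 2 that do not overlap. The 33 bases shown for Oas1g were identical to the first 33 bases shown for Oas1a. The Slfn5 core runs into a row of A bases, unlike the others shown.

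Between 21836878 and 29434125 reads fell on listed genes in each library. CPM, the unit of level, is reads of a gene per 1000000 of these, so that 3 reads came to 0.102 to 0.137 CPM. Kdm5c itself checks the labels. It had 158, 190.3 and 158 CPM in libraries labelled Kdm5c+/- and 179, 174 and 180.0 CPM in wild type in mature adipocytes, a log2 difference of -0.08 ± 0.10 (SE; adjusted p = 0.717 by limma). In the stromal vascular fraction it had 194, 190.4 and 175 CPM in libraries labelled Kdm5c+/- and 188, 185 and 180.1 CPM in wild type (0.01 ± 0.07, adjusted p = 0.978). The level of this transcript therefore did not set the genotype labels apart, and no file shows which part of the gene was deleted. All genotype values below are those of the labels. The fraction labels went with their defining markers: Adipoq, the adipocyte hormone adiponectin, had 3993 to 4602 CPM in mature adipocytes and 45.4 to 169 CPM in the stromal vascular fraction. The summed macrophage markers of the adipocyte libraries came to 1.45 to 4.43% of their mean sum over all stromal vascular libraries.

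Most interferon-induced genes were higher in the stromal vascular fraction than in mature adipocytes, and 6 went the other way. Of 66 members tested in all 12 libraries with limma on log2(CPM + 1), 56 were lower in mature adipocytes, 6 were higher and 4 did not pass (Benjamini-Hochberg adjusted p over all genes, threshold 0.05). In all 14193 genes tested the background was 59.1% lower and 28.7% higher. The median log2 difference, mature adipocyte minus stromal vascular, was -1.46 over the members and -0.45 over all genes tested. Ifitm5 was under the filter on low values in every comparison. The level scale matters here: TMM, median-of-ratios and quantile scaling moved the median of all genes by 0.44, 0.36 and 0.55 on the log2 scale, and under TMM 47 members were called lower and 8 higher, against 43.5% and 42.8% of all genes. Under limma, under these scalings and under edgeR and DESeq2 alike, 42 members were called lower, and the same 6 were called higher: Ifi27l2a, Gbp11, Ifi27, Irf4, Gbp10 and Gbp6. The share of all genes called the same way in every one of these settings was not computed, so these joint counts have no background. In bulk fractions, fewer cells of a type and less RNA per cell cannot be told apart.

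**Figure D1:**
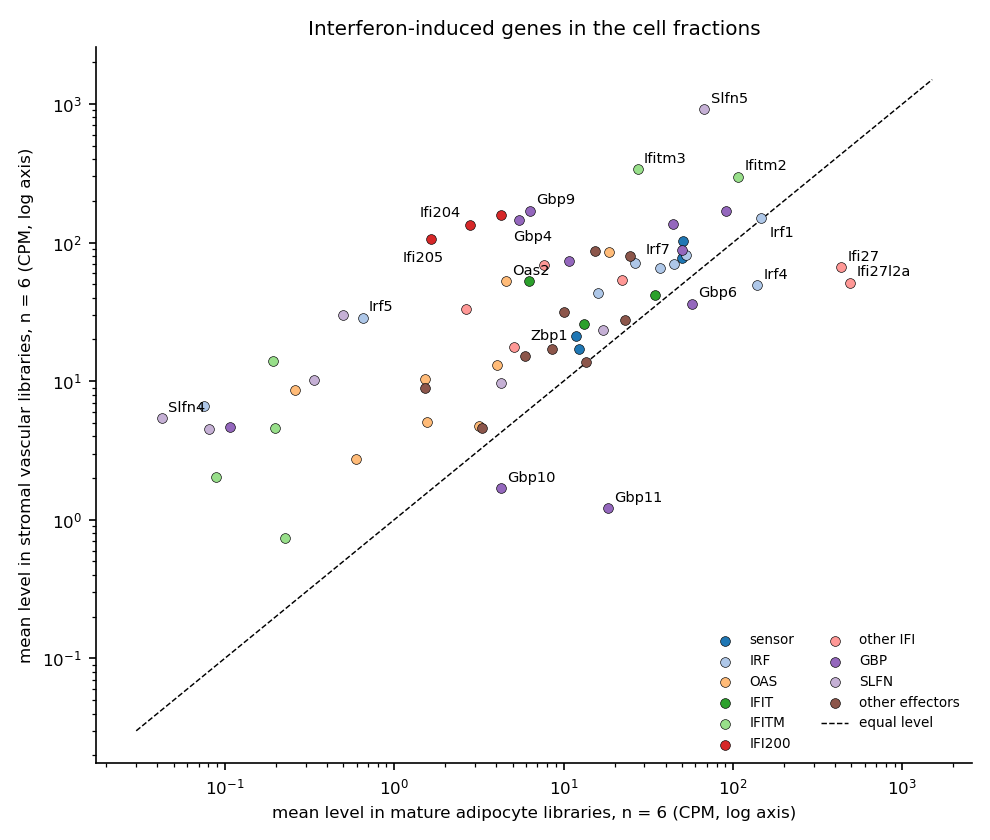
Mean level of 65 members in 6 mature adipocyte libraries (horizontal axis, CPM, log scale) and in 6 stromal vascular libraries (vertical axis, CPM, log scale), coloured by family. The 6 members called higher in mature adipocytes lie below the dashed line of equal level, with Ifi27 and Ifi27l2a farthest to the right.

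Among the sensors, which bind foreign or misplaced nucleic acid, all 4 were lower in mature adipocytes by limma, against 2 by edgeR and 3 by DESeq2. Of all 14193 genes tested, 59.1% were lower by limma, 43.3% by edgeR and 6530 genes by DESeq2. Dhx58, a regulator of RIG-I signalling, had a difference of -0.42 by limma (adjusted p = 0.0047), which turned to 0.02 under TMM and 0.18 under quantile scaling and did not pass there. Ddx58, which encodes the RNA helicase RIG-I, had 42.7 to 57.8 CPM (median 50.0) in mature adipocytes, against 94.7 to 111.4 CPM (median 101.5) in the stromal vascular fraction. No library of either fraction overlapped the other, and the log2 difference was -1.01 ± 0.08 (adjusted p = 1.43e-07, limma). Zbp1, a sensor of Z-form nucleic acid that can start necroptosis, had 6.59 to 18.9 CPM (median 11.8) in mature adipocytes and 13.2 to 38.97 CPM (median 17.8) in the stromal vascular fraction. Its ranges overlapped, and its difference of -0.78 ± 0.17 (adjusted p = 0.001, limma) was -0.34 under TMM and -0.19 under quantile scaling, where it did not pass.

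The interferon regulatory factors, transcription factors of the response, were split. Irf5, which drives inflammatory genes in macrophages, was low in mature adipocytes, at 0.232 to 1.63 CPM (median 0.487), against 23.6 to 32.96 CPM (median 29.5) in the stromal vascular fraction. This was a log2 difference of -4.21 ± 0.17 (adjusted p = 3.46e-10, limma). Irf4 was higher in mature adipocytes, at 66.3 to 380.6 CPM (median 98.1), against 40.5 to 72.9 CPM (median 45.4) in the stromal vascular fraction (1.22 ± 0.30, adjusted p = 0.00255, limma). The highest of its adipocyte values belonged to a single library, Kdm5c+/- replicate 2. Irf7, the factor that amplifies type I interferon production, had 18.8 to 64.5 CPM (median 30.6) in mature adipocytes and 43.9 to 107.0 CPM (median 56.6) in the stromal vascular fraction. Its fractions overlapped too, and its difference of -0.86 ± 0.19 (adjusted p = 0.00115, limma) was -0.40 under TMM, where it did not pass. Irf1, an early target of both interferon types, had 123 to 172 CPM in mature adipocytes and 130.4 to 166 CPM in the stromal vascular fraction (-0.04 ± 0.09, adjusted p = 0.702, limma), and its sign turned to 0.44 under TMM and 0.20 under quantile scaling. It was called higher in mature adipocytes under TMM, quantile and median-of-ratios scaling and by edgeR and DESeq2, so its result depends on the scale.

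The families of effectors differed most. The Ifi200 genes, which encode DNA-binding proteins with a pyrin domain, stood farthest apart. Ifi204 had 1.78 to 4.52 CPM (median 2.72) in mature adipocytes and 99.4 to 203 CPM (median 126) in the stromal vascular fraction, a log2 difference of -5.14 ± 0.19 (adjusted p = 2.38e-10, limma). Ifi205 and Ifi203 had differences of -5.12 ± 0.32 and -4.91 ± 0.09. In the Schlafen family, linked to growth control of immune cells, Slfn5 had 32.6 to 100.4 CPM (median 73.96) in mature adipocytes and 879 to 1019 CPM (median 902) in the stromal vascular fraction (-3.85 ± 0.14, adjusted p = 2.17e-10, limma). Slfn2 had at most 0.883 CPM in mature adipocytes and 26.6 to 33.6 CPM in the stromal vascular fraction. For comparison within these libraries, the median macrophage marker was at 1.87% of its stromal vascular level in mature adipocytes and the median endothelial marker at 3.02%, while Ifi204 was at 2.10%, Ifi205 at 1.57%, Slfn2 at 1.66% and Irf5 at 2.26%. Over all members the median was 31.7%, and 16 of 67 members were under 5%. The part that other cells in the floating layer have in these values was not tested.

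All 8 genes of the Oas group, which make the 2-5A messenger that switches on RNase L or are related to those enzymes, were lower in mature adipocytes by limma, and 7 were so by edgeR and by DESeq2. Among all genes 59.1% were lower by limma, 43.3% by edgeR and 6530 of 14193 by DESeq2. Oas1c, at -0.50 by limma (adjusted p = 0.0156), did not pass with either tool and was called higher under quantile scaling (0.73, adjusted p = 0.000214). Oas1b and Oas1g, at -1.22 and -1.14 by limma, had 0.08 and 0.15 under quantile scaling and did not pass there. Oas2 had 1.41 to 11.01 CPM (median 3.95) in mature adipocytes, against 29.9 to 93.6 CPM (median 47.1) in the stromal vascular fraction (-3.41 ± 0.24, adjusted p = 6.51e-08, limma). Oasl2 had 7.85 to 34.4 CPM (median 15.6) in mature adipocytes and 65.1 to 126.3 CPM (median 82.0) in the stromal vascular fraction. The membrane proteins Ifitm2 and Ifitm3, which hinder entry of enveloped viruses, were lower in mature adipocytes to different degrees, by -1.46 ± 0.08 and -3.57 ± 0.08 (adjusted p = 5.94e-09 and 5.12e-12, limma). Of the Ifit genes, which bind foreign RNA, Ifit2 was lower (-2.96 ± 0.16, adjusted p = 6.82e-09, limma). Its chromosome 19 neighbour Ifit3 had 21.0 to 51.8 CPM in mature adipocytes and 29.99 to 63.4 CPM in the stromal vascular fraction (-0.28 ± 0.22, adjusted p = 0.253, limma; 0.18 under TMM). Rsad2 (viperin, an antiviral enzyme), Bst2 (tetherin, which holds budding virus at the cell surface) and Ifi30 (a lysosomal reductase of antigen processing) were lower as well, by -2.48 ± 0.22, -1.67 ± 0.07 and -3.01 ± 0.12.

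Ifi27 and Ifi27l2a, which encode small membrane proteins, lie next to each other on chromosome 12, at 103434211-103440239 on the plus strand and 103442167-103443680 on the minus strand of GRCm38. The annotated genes are 1.93 kb apart. Ifi27l2a had 352 to 690.2 CPM (median 459) in mature adipocytes and 17.4 to 91.2 CPM (median 48.7) in the stromal vascular fraction. Ifi27 had 378 to 521 CPM (median 430.0) in mature adipocytes and 52.98 to 83.3 CPM (median 62.8) in the stromal vascular fraction. Neither gene's fractions overlapped, and the log2 differences were 3.34 ± 0.26 and 2.69 ± 0.08 (adjusted p = 1.47e-07 and 1.93e-11, limma). Scaled by exon length, they were also the most expressed members of mature adipocytes, at 1061 CPM per kb for Ifi27l2a and 296 CPM per kb for Ifi27, ahead of Ifitm2 at 165 CPM per kb. In the stromal vascular fraction Ifitm3 (498 CPM per kb), Ifitm2 (456 CPM per kb) and Slfn5 (145 CPM per kb) led. Ifitm2 and Ifi27l2a are short genes, and these levels use the union of annotated exons.

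The guanylate-binding proteins, GTPases that attack the vacuoles of intracellular microbes, were divided along the chromosome. Of the 10 members, 6 lie in a row of 332 kb on chromosome 5 (105014150-105346472, GRCm38, all on the minus strand). By the lower coordinate of each gene, Gbp8, Gbp9 and Gbp4 come first, and Gbp10, Gbp6 and Gbp11 follow. On the minus strand this is the end of the gene. The upper coordinates of Gbp8, Gbp9 and Gbp4 nearly coincide, at 105139540, 105139539 and 105139586. The first 3 were lower in mature adipocytes and the last 3 were higher. Gbp9 had 4.08 to 8.83 CPM (median 6.40) in mature adipocytes and 103.0 to 218 CPM (median 170.5) in the stromal vascular fraction (-4.53 ± 0.16, adjusted p = 1.23e-10, limma), and Gbp4 behaved alike (-4.52 ± 0.29, adjusted p = 2.86e-08). Gbp11 had 9.79 to 33.6 CPM (median 13.2) in mature adipocytes and 0.799 to 2.11 CPM (median 1.103) in the stromal vascular fraction (2.98 ± 0.19, adjusted p = 2.35e-08, limma). Gbp6 and Gbp10 were higher in mature adipocytes by 0.65 ± 0.11 and 0.92 ± 0.15 (adjusted p = 0.000108 and 9.32e-05). In these 6 genes no library of either fraction overlapped the other. The chromosome 3 members Gbp2, Gbp3, Gbp5 and Gbp7 were lower in mature adipocytes, Gbp2 by -0.87 ± 0.12 (adjusted p = 3.39e-05, limma).

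**Figure D2:**
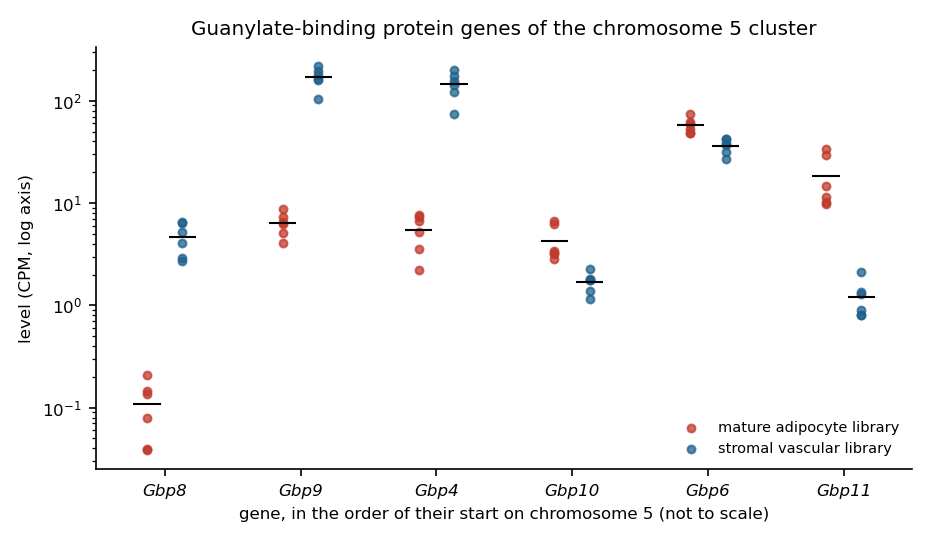
Level of the 6 guanylate-binding protein genes of chromosome 5 (CPM, log axis) in each of 6 mature adipocyte libraries (red) and 6 stromal vascular libraries (blue), with the mean as a line, in the order of their lower coordinates (named start on the axis). Gbp8, Gbp9 and Gbp4 are higher in the stromal vascular fraction and Gbp10, Gbp6 and Gbp11 in mature adipocytes.

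Some of these genes are hard to count apart. Of the 50-base stretches in the GENCODE transcripts of Gbp10, 84.1% also occurred in another gene, 73.3% in Gbp6 and 72.1% in Gm43302. Of those of Gbp6 70.7% did, 65.0% in Gm43302 and 45.95% in Gbp10. The annotated spans of Gbp8, Gbp9 and Gbp4 overlap on the same strand. The share was 19.2% for Gbp11, 57.6% for Oas1a (with Oas1g), 51.2% for Ifit3 (with Ifit3b) and 48.5% for Ifitm2. It was 0% for Irf7, Zbp1, Oas2, Ifi27 and Irf4. Over 10% of the stretches were shared for 20 of the 67 members. The sources used here do not say how reads that fit several genes were counted, so the split between such genes is uncertain.

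Between the genotype labels, no member passed the test in mature adipocytes, though more members were above wild type than below it. Of the 54 members tested there, limma called 0 higher and 0 lower, as it did among all 11913 genes tested (0.0% higher and 0.0% lower); edgeR also called 0 members. Unadjusted, 12 of the 54 had p under 0.05, 10 higher and 2 lower, against 14.6% of all genes. DESeq2 on the recovered reads called 7 members (among all genes 125 higher, 1.05%, and 125 lower, 1.05%). They were Irf7, Zbp1, Oas2, Gbp11, Ifi44 and Ifi27, higher in Kdm5c+/-, and Slfn5, lower. The log2 difference, Kdm5c+/- minus wild type, was positive in 40 of 54 members (74.1%) and in 43.1% of all genes, with medians of 0.16 and -0.03. The groups did not overlap in 11 members that were higher (20.4%, background 9.44%) and in 2 that were lower (3.70%, background 12.6%). Leaving out each library in turn gave 36 to 42 positive members of 54 and medians of 0.10 to 0.24, the lowest without Kdm5c+/- replicate 1.

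Zbp1 had the smallest p of the members. It had 15.2, 18.9 and 13.4 CPM in Kdm5c+/- adipocytes, against 6.99, 6.59 and 10.2 CPM in wild type. All 3 Kdm5c+/- libraries were above all 3 wild-type libraries, and the log2 difference was 0.92 ± 0.19 (95% interval 0.47 to 1.37; adjusted p = 0.273 by limma and 0.00801 by DESeq2). Irf7 had 55.5, 64.5 and 33.1 CPM in Kdm5c+/- adipocytes, against 22.9, 18.8 and 28.0 CPM in wild type. Replicates 1 and 2 stood well above wild type and replicate 3 just above its highest library (1.07 ± 0.26, interval 0.45 to 1.69; adjusted p = 0.273 by limma and 0.00782 by DESeq2). Oas2 had 5.54, 11.01 and 4.31 CPM in Kdm5c+/- adipocytes, against 1.41, 1.46 and 3.59 CPM in wild type, again with no overlap (1.31 ± 0.38, interval 0.42 to 2.21; adjusted p = 0.288 by limma and 0.0327 by DESeq2).

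Other members named by the smallest p lay above wild type in most or all of the Kdm5c+/- libraries. Gbp11 had 29.6, 33.6 and 14.8 CPM in Kdm5c+/- adipocytes, against 10.1, 9.79 and 11.5 CPM in wild type (1.16 ± 0.28, adjusted p = 0.273, limma). Without Kdm5c+/- replicate 3 its difference was 1.51 and passed (adjusted p = 0.0491, limma). In that setting 3 of all 11805 genes tested passed, against 0 of 11913 with every library. Oas1a had 6.24, 5.92 and 4.11 CPM in Kdm5c+/- adipocytes, against 2.65, 1.56 and 3.75 CPM in wild type. Ifi44, a gene of the type I response, had 7.60, 10.2 and 4.15 CPM in Kdm5c+/- adipocytes, against 2.65, 2.14 and 3.90 CPM in wild type. The log2 differences of Oas1a and Ifi44 were 0.84 ± 0.26 and 1.05 ± 0.31 (adjusted p = 0.289 each, limma). Ifi27 was tighter, at 521, 460.5 and 464 CPM in Kdm5c+/- adipocytes and 384, 378 and 399 CPM in wild type (0.31 ± 0.09, adjusted p = 0.289, limma; 0.0303 by DESeq2). Ifitm3 had 29.9, 29.4 and 31.0 CPM in Kdm5c+/- adipocytes and 23.2, 26.4 and 24.7 CPM in wild type (0.28 ± 0.08, adjusted p = 0.286, limma). Oasl2 and Rtp4, a chaperone of receptors, had differences of 1.08 ± 0.36 and 0.90 ± 0.34, with overlap between the groups (adjusted p = 0.300 and 0.321, limma).

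**Figure D3:**
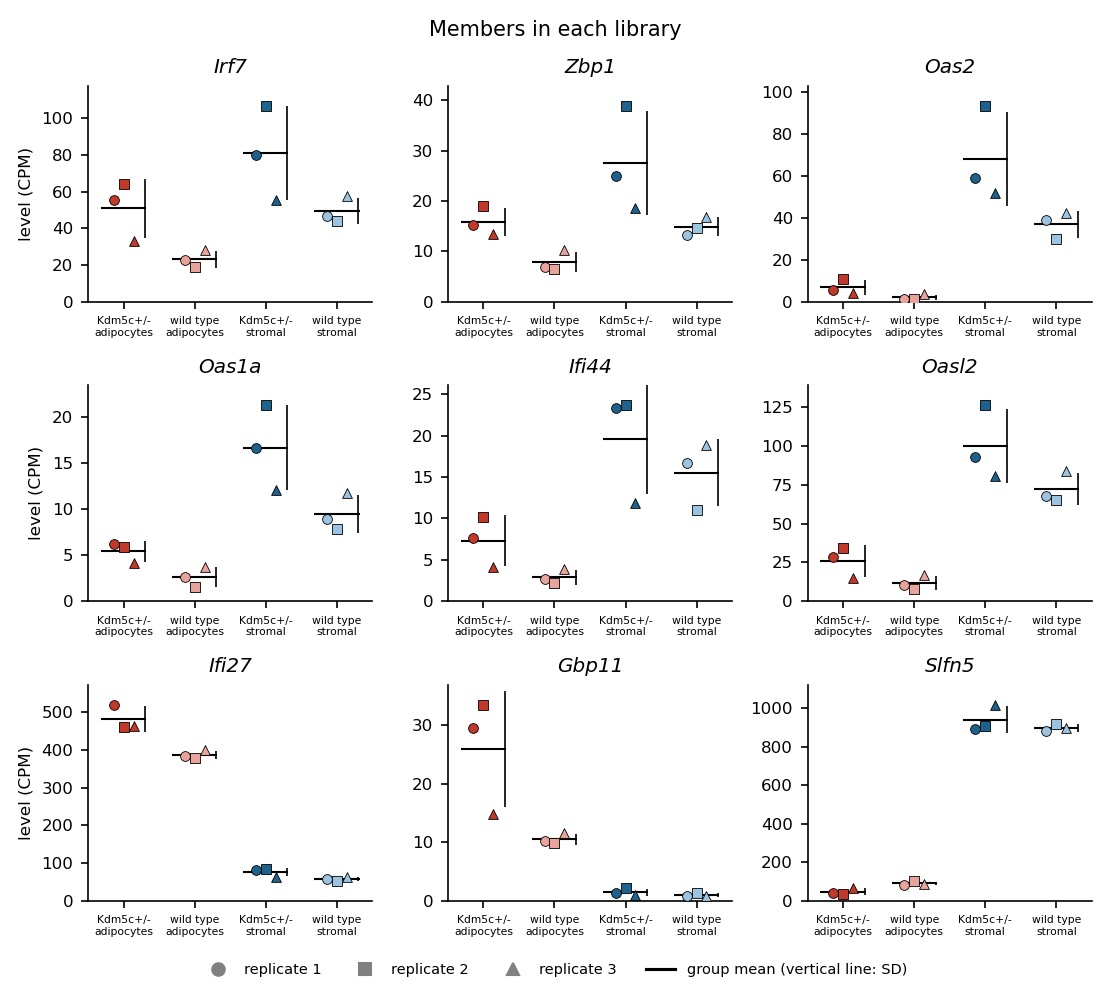
Level (CPM) of 9 members in each library, by group, with the group mean as a horizontal line and the SD (n = 3) as a vertical line. Marker shapes give the replicate number, and in both fractions Kdm5c+/- replicate 3 (triangle) is the lowest of its group for Irf7, Zbp1, Oas2, Oas1a, Ifi44, Oasl2 and Gbp11.

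Of the 14 members below wild type in mature adipocytes, Slfn5 and Gbp9 had the smallest unadjusted p (0.00624 and 0.0303, limma). Slfn5 had 39.8, 32.6 and 66.9 CPM in Kdm5c+/- adipocytes, against 81.0, 100.4 and 85.4 CPM in wild type (-0.98 ± 0.25, adjusted p = 0.275 by limma and 0.0266 by DESeq2). Gbp9 had 5.14, 4.08 and 6.27 CPM in Kdm5c+/- adipocytes, against 7.23, 8.83 and 6.53 CPM in wild type (-0.48 ± 0.18, adjusted p = 0.311, limma). In both genes the groups did not overlap, and both are among the members highest in the stromal vascular fraction. In the same libraries the 7 endothelial markers summed to 98.1 to 178 CPM in Kdm5c+/- adipocytes and 225 to 283 CPM in wild type, with 7 of 7 below wild type. The 9 macrophage markers summed to 38.8 to 43.4 CPM in Kdm5c+/- adipocytes and 39.9 to 118.5 CPM in wild type, with 9 of 9 below wild type. The 8 progenitor markers were all below wild type, with sums of 333 to 1235 CPM in Kdm5c+/- adipocytes and 813 to 1236 CPM in wild type. The 10 mature adipocyte markers summed to 36600 to 48140 CPM in Kdm5c+/- adipocytes and 33550 to 35030 CPM in wild type, with 7 of 10 above wild type. Of the 5 pericyte markers 4 were below wild type and 1 above (median -0.93). They summed to 163 to 265 CPM in Kdm5c+/- adipocytes and 159 to 207 CPM in wild type. All 3 Schwann cell markers tested and the 1 plasmacytoid dendritic marker tested were below wild type, and the 1 neutrophil marker tested was above. None of these markers passed, and their part in the differences of Slfn5, Gbp9 or the other members was not tested. Irf4 in mature adipocytes had 114, 380.6 and 92.1 CPM in Kdm5c+/- and 66.3, 78.3 and 104 CPM in wild type (0.96 ± 0.51, adjusted p = 0.409, limma), so that replicate 2 set its mean.

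In the stromal vascular fraction again no member passed, and more members lay above wild type than below. Limma and edgeR each called 0 of the 66 members tested, and the background was 0.00725% higher (1 of 13792 genes) and 0.0% lower. Unadjusted, 16 of 66 had p under 0.05, all of them higher, against 7.56% of all genes, where 285 were higher and 758 lower. DESeq2 called 1 member, Oas2, higher, and among all genes 25 higher (0.181%) and 28 lower (0.203%). The difference was positive in 47 of 66 members (71.2%) and in 40.6% of all genes, with medians of 0.23 and -0.03. The groups did not overlap in 12 members that were higher (18.2%, background 3.74%) and in 0 that were lower (background 9.74%). Leaving out each library in turn gave 47 to 51 positive members of 65 or 66.

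Bst2 had the smallest p here, with 94.1, 91.2 and 82.2 CPM in Kdm5c+/- stromal vascular cells and 67.5, 70.5 and 77.6 CPM in wild type (0.31 ± 0.09, adjusted p = 0.617, limma). Oas2 had 59.1, 93.6 and 51.8 CPM in Kdm5c+/- and 39.1, 29.9 and 42.3 CPM in wild type (0.83 ± 0.24, interval 0.26 to 1.4; adjusted p = 0.617 by limma and 0.0447 by DESeq2). Both genes had every Kdm5c+/- library above every wild-type library. Oas1a had 16.6, 21.3 and 12.1 CPM in Kdm5c+/- and 8.90, 7.81 and 11.8 CPM in wild type (0.74 ± 0.22, adjusted p = 0.617, limma). Oas3, under the filter in mature adipocytes, had 12.2, 18.8 and 6.29 CPM in Kdm5c+/- and 4.07, 4.31 and 5.96 CPM in wild type (1.12 ± 0.36, adjusted p = 0.617, limma). Mx1, a dynamin-like antiviral GTPase, had 10.04, 13.3 and 8.96 CPM in Kdm5c+/- and 6.84, 5.79 and 8.29 CPM in wild type (0.56 ± 0.18, adjusted p = 0.617, limma). In these 3 genes the lowest Kdm5c+/- library, replicate 3, lay just above the highest wild-type library, also replicate 3.

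Zbp1 had 25.01, 38.97 and 18.7 CPM in Kdm5c+/- stromal vascular cells and 13.2, 14.7 and 16.9 CPM in wild type (0.79 ± 0.25, interval 0.19 to 1.38; adjusted p = 0.617, limma). Irf7 had 80.2, 107.0 and 55.7 CPM in Kdm5c+/- and 47.0, 43.9 and 57.5 CPM in wild type. Its groups overlapped, replicate 3 of Kdm5c+/- being below replicate 3 of wild type (0.66 ± 0.24, interval 0.09 to 1.23; adjusted p = 0.634, limma). The remaining members named by p had smaller differences: Stat2 0.24 ± 0.08, Slfn8 0.37 ± 0.12, Gbp6 0.37 ± 0.12, Rtp4 0.38 ± 0.15 and Ifi27 0.39 ± 0.12. Their adjusted p values were 0.617 to 0.644 (limma). Ifi27 had 81.5, 83.3 and 63.0 CPM in Kdm5c+/- and 57.2, 52.98 and 62.6 CPM in wild type. It is higher in adipocytes, and Adipoq had 165, 169 and 55.8 CPM in the same Kdm5c+/- stromal vascular libraries and 105, 45.4 and 59.5 CPM in wild type. The part of adipocyte RNA in the Ifi27 difference was not tested. The 9 macrophage markers summed to 2317 to 3530 CPM in Kdm5c+/- stromal vascular cells and 2315 to 2440 CPM in wild type, 9 of 9 above wild type and 0 passing. The 7 endothelial markers summed to 5168 to 6729 CPM in Kdm5c+/- and 6609 to 7208 CPM in wild type, 7 of 7 below wild type and 0 passing. The 10 mature adipocyte markers summed to 858 to 2238 CPM in Kdm5c+/- and 775.5 to 1360 CPM in wild type, 8 of 10 above wild type with a median difference of 0.65. All 5 pericyte markers were below wild type (median -0.45; sums of 1826 to 2714 CPM in Kdm5c+/- and 2631 to 3132 CPM in wild type), and all 4 Schwann cell markers were above it (median 0.28; 175 to 461 CPM in Kdm5c+/- and 177 to 258 CPM in wild type). Of the 4 markers listed for plasmacytoid dendritic cells, which are major interferon producers, 3 of 3 tested were below wild type. Their sums were 446 to 529 CPM in Kdm5c+/- and 549 to 584 CPM in wild type, most of it Tcf4, a gene of many cell types, at 408 to 503 CPM in Kdm5c+/- and 517.5 to 554 CPM in wild type. Siglech, their defining marker, had 8.58, 3.44 and 8.55 CPM in Kdm5c+/- and 8.28, 6.196 and 7.70 CPM in wild type. In the other lists, 6 of 8 progenitor, 4 of 6 mammary epithelium and 2 of 5 dendritic markers were above wild type. So were 2 of 11 lymphocyte and 1 of 4 neutrophil markers, and the rest were below. No marker of these lists passed, and their part in the members' differences was not tested.

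**Figure D4:**
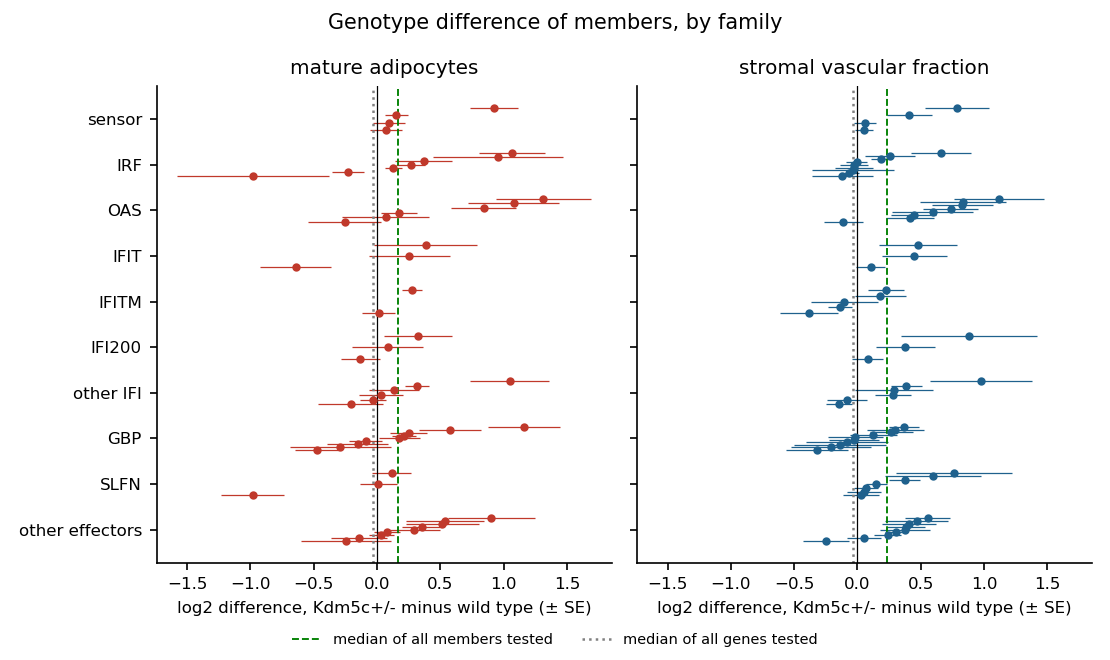
Log2 difference, Kdm5c+/- minus wild type, of members tested (point, with SE) in 10 families, in mature adipocytes (left, 52 members) and in the stromal vascular fraction (right, 64 members). The green dashed lines are the medians of all members tested (0.16 and 0.23) and the grey dotted lines those of all genes tested (-0.03 in both).

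By family, the Oas group had the highest median in both fractions among families with at least 3 members tested. In mature adipocytes it was 0.51 over 6 members, 5 of them positive, and in the stromal vascular fraction 0.66 over 8 members, 7 of them positive. All 4 sensors were positive in both fractions. The effectors, such as the ubiquitin-like Isg15 and Usp18, which removes it from proteins, were positive in 7 of 9 in mature adipocytes (median 0.29) and in 8 of 9 in the stromal vascular fraction (median 0.38). The Gbp genes were mixed, with medians of 0.18 over 9 members in mature adipocytes and -0.02 over 10 in the stromal vascular fraction. The Irf genes were positive in 5 of 7 in mature adipocytes (median 0.27) and in 3 of 9 in the stromal vascular fraction (median -0.03). With edgeR the stromal vascular medians of the Gbp and Irf genes were 0.05 and 0.03. The Ifitm genes were positive in 2 of 2 in mature adipocytes and in 2 of 5 in the stromal vascular fraction (median -0.10). Of the Schlafen genes, 2 of 3 were positive in mature adipocytes (median 0.01), Slfn5 being the negative one, and 7 of 7 in the stromal vascular fraction (median 0.15). Of the 54 members tested in both fractions, 34 (62.96%) were positive in both, against 19.3% of 11526 genes. The fractions of a pool come from the same mice, so they are not separate samples of the genotype.

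Whether the genotype difference was unlike in the fractions was tested in all 12 libraries. Limma called 0 of 66 members, and the background was 0.0% higher and 0.0% lower; edgeR and DESeq2 called 0 members as well. Unadjusted, 5 members had p under 0.05, Slfn5, Mx1, Ifit2, Ifi27l2a and Gbp11, against 8.93% of all genes. Slfn5 had the smallest p: it was below wild type in Kdm5c+/- adipocytes and had 894, 909 and 1019 CPM in Kdm5c+/- stromal vascular cells, against 879, 916 and 896 CPM in wild type. The difference between the differences was -1.05 ± 0.29 (adjusted p = 0.478, limma), and without Kdm5c+/- adipocyte replicate 3 it was -1.34 and passed (adjusted p = 0.0195, limma). In that setting 7 of all 14160 genes tested passed, against 0 of 14193 with every library. Mx1 and Ifit2 had -0.70 ± 0.29 and -0.75 ± 0.33 (adjusted p = 0.536 and 0.549, limma). For Irf7, Zbp1 and Oas2 the values were 0.41 ± 0.38, 0.14 ± 0.34 and 0.48 ± 0.48, with 95% intervals of -0.43 to 1.25, -0.61 to 0.89 and -0.57 to 1.54. Differences of those sizes between the fractions could not be resolved with 3 libraries per group.

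The level of the members as a set differed from pool to pool. The median deviation of the members from the wild-type mean was 0.28, 0.20 and 0.07 in the Kdm5c+/- adipocyte libraries and -0.05, -0.06 and 0.15 in wild type. In the stromal vascular fraction it was 0.29, 0.29 and 0.10 in Kdm5c+/- and -0.04, -0.03 and 0.04 in wild type. The lowest Kdm5c+/- pool and the highest wild-type pool thus bore the number 3 in both fractions, and in adipocytes the wild-type pool of that number lay above the Kdm5c+/- pool. Stromal vascular Kdm5c+/- replicate 2 was the highest of its fraction for 35 of 66 members. Wild-type replicate 2 was the lowest most often, for 21 of 54 members in adipocytes and 23 of 66 in the stromal vascular fraction. The same shares over all genes were not computed, so these counts of highest and lowest libraries have no background.

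**Figure D5:**
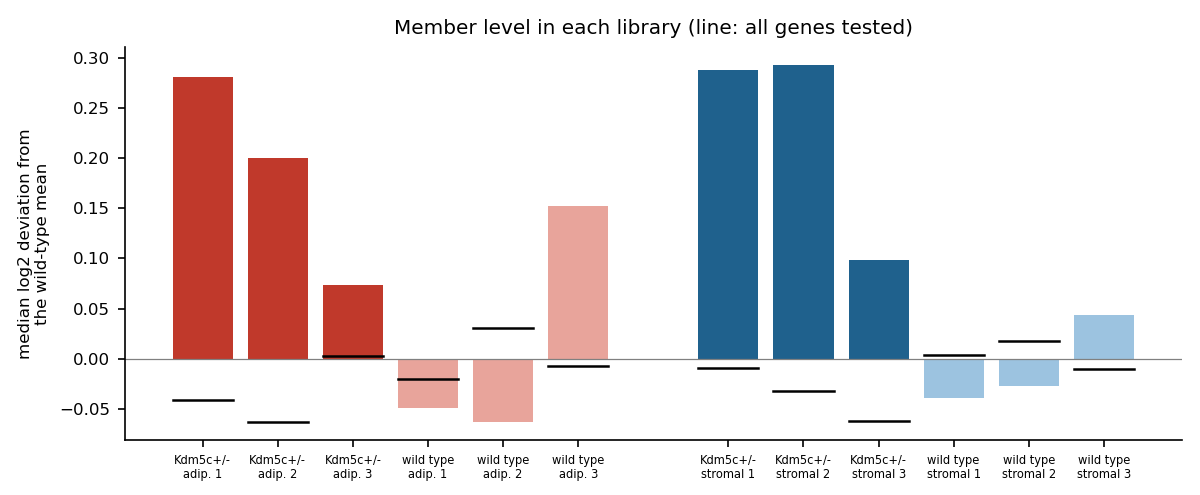
Median log2 deviation of the members from the wild-type mean of their fraction in each library (bars; 54 members in adipocyte and 66 in stromal vascular libraries), with the same for all genes tested as a line. The bars of Kdm5c+/- replicates 1 and 2 reach 0.20 to 0.29 and those of replicate 3 stay at 0.07 and 0.10.

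After removal of the group means, the deviations of single members were set against the mean deviation of all members over the 12 libraries. Pearson's r had a median of 0.53 over 66 members, was above 0.5 in 33 and was below 0 in 17. The share of all genes above 0.5 was not computed, so these counts have no background. The highest were Oasl1 (0.95), Isg15 (0.93), Ifit1 (0.92), Usp18 (0.91) and Ifit3 (0.91), genes of the antiviral core, while Irf7 had 0.89, Zbp1 0.86 and Oas2 0.69. The lowest were Gbp9 (-0.82), Irf1 (-0.77) and Gbp4 (-0.75). Outside the members and lists, the genes with the highest r were Lrg1 (0.97), Ankrd46 (0.96), Ptpru (0.95), Fam19a5 (0.95) and Ints3 (0.95). Lrg1, a secreted glycoprotein, averaged 619 CPM in Kdm5c+/- adipocytes and 202 CPM in wild type (log2 difference 1.64). It did not pass there, as limma called 0 of 11913 genes. In the stromal vascular fraction it averaged 93.5 and 78.3 CPM in the same order. These correlations describe 12 libraries that share pools, and each member is part of the mean it is set against.

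The other genes of the pathway, from lists of ligands, receptors, signalling and sensing genes, had 0 calls between the genotypes by limma in either fraction. Of 21 interferon genes looked for, Ifng alone is listed, with 1.42 to 2.84 CPM in Kdm5c+/- stromal vascular cells and 1.88 to 3.95 CPM in wild type, and at most 0.0392 CPM in any adipocyte library. All 6 receptor genes were lower in mature adipocytes than in the stromal vascular fraction by limma, and 4 of them by edgeR and by DESeq2. The background was 59.1% of all genes by limma, 43.3% by edgeR and 6530 of 14193 genes by DESeq2. Ifnar1 averaged 54.3 ± 5.29 CPM in Kdm5c+/- adipocytes and 62.0 ± 2.90 CPM in wild type, and Ifngr1 219 ± 50.9 and 168 ± 28.8 CPM in the same order (SD, n = 3 each). Among the 10 signalling genes, the kinase Jak1 averaged 173 ± 7.96 CPM in Kdm5c+/- adipocytes and 207 ± 11.8 CPM in wild type, and the phosphatase gene Ptpn11 264 ± 19.8 and 316 ± 16.3 CPM. Among the 20 sensing genes listed, Traf3, an adaptor, and Rnaseh2b, a subunit of RNase H2, had differences of -0.25 ± 0.13 and -0.35 ± 0.14 in adipocytes. The histone demethylase genes Kdm1b and Kdm5a had -0.31 ± 0.08 and -0.28 ± 0.10 (adjusted p = 0.273 and 0.309, limma).

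A further 54 interferon-induced genes outside these families were measured. By limma 0 of 46 passed between genotypes in mature adipocytes and 0 of 54 in the stromal vascular fraction. The differences were positive in 31 of 46 (median 0.10) and in 37 of 54 (median 0.07). In mature adipocytes against the stromal vascular fraction, limma called 42 lower and 5 higher of 54 (background 59.1% and 28.7%), and edgeR 37 lower and 11 higher (background 43.3% and 42.7%). Samd9l, an antiviral and growth-limiting gene, had 41.8, 38.5 and 41.5 CPM in Kdm5c+/- adipocytes and 48.5, 54.9 and 55.8 CPM in wild type (-0.38 ± 0.08, adjusted p = 0.273 by limma and 0.0486 by DESeq2). DESeq2 also called Lgals3bp, which encodes a secreted glycoprotein, higher in Kdm5c+/- in both fractions, and Gm4951 in the stromal vascular fraction. Lgals3bp had 672, 567 and 508 CPM in Kdm5c+/- adipocytes and 396, 349.9 and 458 CPM in wild type (0.54 ± 0.15, adjusted p = 0.280 by limma and 0.0395 by DESeq2). In the stromal vascular fraction it had 387, 400.1 and 318 CPM in Kdm5c+/- and 240, 224 and 295 CPM in wild type (0.54 ± 0.13, adjusted p = 0.617 by limma and 0.0280 by DESeq2). Gm4951 there had 18.0, 24.3 and 19.1 CPM in Kdm5c+/- and 10.8, 13.2 and 13.7 CPM in wild type (0.66 ± 0.14, adjusted p = 0.617 by limma and 0.0276 by DESeq2). Neither gene's groups overlapped in these comparisons. Ube2l6, the enzyme that passes Isg15 to its targets, had 14.02, 14.1 and 16.1 CPM in Kdm5c+/- adipocytes and 11.2, 10.5 and 11.9 CPM in wild type (0.37 ± 0.10, adjusted p = 0.277, limma).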

How the data were processed

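RNA was measured in 12 libraries, each from the pooled inguinal fat of 2 mice, 3 per genotype label and fraction. For the genotype within a fraction, p-values measure the spread between these pools. The comparison of fractions and the difference of differences were fitted to all 12 libraries without their pairing by pool. Their p-values and intervals measure the spread between libraries within the groups. The submitters' processing notes name the aligner STAR (2.7.2a), the build GRCm38 and edgeR (3.26.8). The sources used here name no counting tool and no annotation. Deposited were CPM, scaled by the authors to the listed genes, and every value was a whole multiple of 1 read within 0.05 read, so that whole reads were recovered.

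Positions, exon lengths and transcripts came from GENCODE, promoters from RefSeq. Genes that reached 1 CPM in 3 or more of the fitted libraries were tested with limma 3.58.1 (trend, robust; R 4.3.3) on log2(CPM + 1), a scale that understates the change of low genes. All tests were two-sided, with Benjamini-Hochberg adjustment over all genes and a threshold of 0.05. Alternatives were edgeR 4.0.16 and DESeq2 1.42.0 on the recovered reads, other scalings, pseudocounts and filters, a replicate block, a fit of all libraries and leaving out each library. Libraries of the same genotype and number in both fractions are parts of the same pool per the labels' protocols read with their numbers, and deviated together (r = 0.169 to 0.278 in 6 pairs); with the pool as a replicate block, 63 members were called between fractions. The level of 3 reads covers counting error only.

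Members were matched by symbol; the families and lists were chosen with earlier results of these data known. Named were Irf7, Zbp1, Oas2, Kdm5c, the 12 members with the smallest p per genotype comparison, the 8 with the largest difference per direction between fractions, the 3 with the smallest p for the difference of differences, the highest member per family, up to 2 genes per pathway list and the 5 genes most like the members; others are named with values as shown. The values of 1 member, which is counted in the totals, are not reported here.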

Additional observations from a re-analysis of the deposited data

How the results depend on the processing

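Kdm5c+/- against wild type gave 0 member calls in mature adipocytes with limma and edgeR and 7 with DESeq2. Without single libraries limma gave 0 to 1, the 1 being Gbp11 without Kdm5c+/- replicate 3, where 3 of all 11805 genes tested passed. In the stromal vascular fraction the count was 0, with DESeq2 1 (Oas2). For the difference of differences it was 0, and 0 to 1 without single libraries. Slfn5 was called without Kdm5c+/- adipocyte replicate 3, where 7 of all 14160 genes tested passed. Between the fractions, the members' median difference was -1.46, and -1.25 with DESeq2, -1.16 with edgeR, -1.04 with TMM, -0.875 with quantile normalization, -1.12 with median-of-ratios and -1.63 with a pseudocount of 0.25. The median of all genes was -0.4476, and -0.08829 with DESeq2, -0.007514 with edgeR and -0.008541 with TMM. It was 0.1065 with quantile normalization, -0.08815 with median-of-ratios and -0.4781 with a pseudocount of 0.25. The cause of the members' shifts was not tested. The members' median for the difference of differences, -0.01, was 0.00634 at a mean of at least 5 CPM and -0.123 to 0.0588 without single libraries.

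Between the fractions, signs turned in several members. Irf1 had 0.36 with DESeq2, 0.438 with TMM, 0.441 with edgeR, 0.353 with median-of-ratios and 0.204 with quantile normalization, and was called higher with each of these. Without single libraries Irf1 had -0.0851 to 0.015. Ifit3 had 0.137 with DESeq2, 0.184 with TMM, 0.217 with edgeR, 0.101 with median-of-ratios and 0.118 with quantile normalization. Isg20, at -0.02, was called higher under every other scaling and tool run (up to 0.617, with quantile normalization). Dhx58, Mx2 and Slfn8, called lower, were above 0 with TMM, edgeR and quantile normalization, and Rtp4, which did not pass, was above 0 with all of the other scalings and tools. Mx2 (0.848) and Oas1c (0.730) were called higher with quantile normalization, where Oas1b and Oas1g were also above 0. The Zbp1 difference of differences was -0.0576 with quantile normalization and -0.0998 to 0.411 without single libraries. The Kdm5c difference in the stromal vascular fraction ranged over -0.0146 to 0.0576 without single libraries. The cause of these turns was not tested.

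Replicate numbers were not shown to pair the genotypes (r from -0.281 to 0.341 across genes), and with the number as a replicate block limma called 0 members in both fractions. With the pool as a block, 63 members were called between fractions, against 62 without it, and 0 in the difference of differences, and over all genes 12503 were called between fractions with the block, against 12466. The 1 gene called over all genes in the stromal vascular fraction was not called with the replicate block. Of the members, 13 were under the filter in mature adipocytes, the highest with a mean of 0.650 CPM, and their genotype difference there was not detectable at this depth.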
